A study of Mus musculus with 6 samples.

Results

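RNA-seq counts of mouse fetal liver haematopoietic stem cells (HSCs) were examined for 10 imprinted growth genes: Igf2, H19, Dlk1, Meg3, Peg3, Plagl1, Grb10, Mest, Ndn and Igf2r. They were taken by name as a network of imprinted genes that acts on fetal growth, and all 10 were among the 38926 genes in the count files. Of the 10, 8 had counts and the same 8 passed the filter on low counts, among 13646 genes in all that passed it. Dlk1 and Meg3 were listed at 0 in every library.

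HSCs were sorted by surface markers from embryos at E14.5, with 3 litters each giving 1 control and 1 knockout library. Controls were Vav-Cre; Dpy30F/+ and knockouts were Vav-Cre; Dpy30F/-, so both genotypes carried the Vav-Cre transgene and 1 floxed Dpy30 allele, and the second allele was wild type in controls and a deleted allele in knockouts. Vav-Cre drives recombination in blood-forming cells and their endothelial relatives, so controls keep 1 intact Dpy30 allele wherever the enzyme acts, and cells in which it did not act keep a working allele in both genotypes. The labels give the litter of each library but not whether embryos were pooled, so the p-values measure the spread between these libraries.

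An imprinted gene is transcribed mainly from the copy inherited from 1 parent, because DNA methylation laid down in the egg or sperm at a control region is kept through the divisions of the embryo. Genes expressed from the paternal copy often promote growth and genes expressed from the maternal copy often restrain it, with the fetal growth factor Igf2 and its clearance receptor Igf2r as the classic pair. Several of these genes have been linked to HSC quiescence and self-renewal, the Igf2-H19 and Dlk1-Meg3 domains above all. Dpy30 belongs to the shared core of the SET1/MLL enzymes, which methylate histone H3 at lysine 4, a mark of active promoters that is depleted where imprints carry DNA methylation.

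Start-site regions are shown for 4 members, chosen after their counts were seen. Mest and Plagl1 were lowest in 1 knockout, Peg3 was lowest in another, and Grb10 was steady in scaled counts. Each line gives the 250 bases before a RefSeq start site in build GRCm38.p6, read 5′ to 3′ on the gene's strand, with CpG dinucleotides, at whose cytosines imprints are methylated, in capitals. The Mest region is chr6:30737800-30738049 on the plus strand, the Plagl1 region is chr10:13090582-13090831 on the plus strand, the Peg3 region is chr7:6730420-6730669 on the minus strand, and the Grb10 region is chr11:12037421-12037670 on the minus strand.
Mest: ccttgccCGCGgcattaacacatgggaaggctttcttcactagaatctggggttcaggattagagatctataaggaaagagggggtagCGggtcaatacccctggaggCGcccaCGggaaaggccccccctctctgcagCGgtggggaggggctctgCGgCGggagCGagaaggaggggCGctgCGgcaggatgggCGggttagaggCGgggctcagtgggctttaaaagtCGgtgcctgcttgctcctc
Plagl1: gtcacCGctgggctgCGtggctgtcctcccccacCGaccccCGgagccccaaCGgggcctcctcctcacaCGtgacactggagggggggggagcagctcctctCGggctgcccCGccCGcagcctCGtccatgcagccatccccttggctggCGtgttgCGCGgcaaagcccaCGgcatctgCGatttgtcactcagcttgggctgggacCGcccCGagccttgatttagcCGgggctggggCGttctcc
Peg3: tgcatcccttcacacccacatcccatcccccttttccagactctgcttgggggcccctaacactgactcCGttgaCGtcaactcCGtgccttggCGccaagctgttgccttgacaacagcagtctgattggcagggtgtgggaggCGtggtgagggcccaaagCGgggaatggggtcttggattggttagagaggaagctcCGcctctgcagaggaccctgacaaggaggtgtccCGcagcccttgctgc
Grb10: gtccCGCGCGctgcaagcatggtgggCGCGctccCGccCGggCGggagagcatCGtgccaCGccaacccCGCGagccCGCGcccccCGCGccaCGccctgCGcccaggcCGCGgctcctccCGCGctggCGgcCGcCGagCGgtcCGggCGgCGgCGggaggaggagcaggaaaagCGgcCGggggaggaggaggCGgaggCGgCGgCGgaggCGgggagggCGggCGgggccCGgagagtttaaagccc

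The CpG content of the 4 regions differed, and a link between sequence and counts was not tested. The printed Grb10 bases held 40 CpG, those of Plagl1 19, those of Mest 14 and those of Peg3 8. Over the full 300-base windows, which add 50 bases after the start, the Grb10 window had more CpG than 98.1% of 32851 such windows, Plagl1 more than 83.1%, Mest more than 68.6% and Peg3 more than 62.1%, against a median of 7 over all windows. The hexamer TGCCGC, to which the imprint-protecting factor ZFP57 binds when it is methylated, was searched on both strands. In the full windows it occurred 2 times for Mest, 1 time for Plagl1, 1 time for Grb10 and not for Peg3, and 11.6% of all windows held at least 1. The Grb10 match lies outside the printed bases. Only 1 start site per gene is shown, while Grb10 has 2 such windows and Mest 3. The other Grb10 window held 9 CpG, more than 54.2% of windows, and no match. Of the other Mest windows, 1 held 8 CpG, more than 51.4%, and no match. The remaining Mest window, chr6:30737803-30738102, covers nearly the same bases as the shown one, chr6:30737800-30738099. Its 17 CpG and 2 matches are therefore those of the shown window and not further ones. A match describes the letters of the window and not binding in these cells.

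H19 and the Mest locus also host microRNAs, which the poly(A)-selected counts did not measure. Their mature sequences are shown from RefSeq with the seed, bases 2 to 8, in capitals, and the 4 seeds differ from each other.
mmu-miR-675-5p, from an H19 exon: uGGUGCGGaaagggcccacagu
mmu-miR-675-3p, from the same H19 exon: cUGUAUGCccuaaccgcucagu
mmu-miR-335-5p, from within Mest: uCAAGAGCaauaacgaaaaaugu
mmu-miR-335-3p, from within Mest: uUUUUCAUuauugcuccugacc

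Each library held 31897737 to 43394700 counts assigned to genes, and 41.0% to 51.0% of reads fell in the tallies of no gene. Values below are CPM, counts scaled to 1000000 per library, after trimmed-mean (TMM) scaling. The TMM factors were 0.747, 1.05 and 1.02 for controls 1 to 3 and 1.25, 0.99 and 1.01 for knockouts 1 to 3. Differences within litter 1 thus depend most on this scaling. A level of 3 counts, the limit that a count of 0 allows, stood at 0.068 to 0.104 CPM. In litter order, Dpy30 itself had 24.6, 24.2 and 31.6 CPM in the control libraries against 7.93, 5.95 and 13.7 CPM in the knockout libraries, so every knockout lay below every control (log2 fold change -1.55, SE 0.464, edgeR adjusted p = 0.672, DESeq2 adjusted p = 0.131). The summed CPM of 15 HSC markers was 993 to 1060 in controls against 1270, 1440 and 492 for knockouts 1 to 3, with 13 of the 15 lowest in knockout 3. None of the 15 was at 0 in any library. The summed CPM of 9 endothelial markers was 1180 to 1830 in the other 5 libraries and 189 in knockout 2, where 7 of the 9 were lowest and none was at 0. Several of these endothelial genes are also transcribed in fetal HSCs. Over all tested genes, knockout 3 was the lowest library for 29.1% and knockout 2 for 22.8%.

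No member passed the test between genotypes. With edgeR's quasi-likelihood test and Benjamini-Hochberg adjustment, 0 of the 8 tested members and 0% of the 13646 tested genes had an adjusted p under 0.05. At an unadjusted p under 0.05 the count was 0 of 8 members, against 6.51% of all tested genes. DESeq2 called 0 members, against 1.03% of the 13390 genes to which it gave an adjusted p. It gave Ndn no adjusted p. No member had every knockout above every control, against 6.39% of all genes, or every knockout below every control, against 7.74%. The median log2 fold change of the 8 was -0.25, against 0.01 over all tested genes. For the 8, 1 estimate was above 0 and 7 below, none of which passed the test, against 6927 above and 6719 below over all tested genes. With library sizes alone Igf2 was at 0.068, and H19, Mest and Igf2r were at -0.018, -0.002 and -0.026. Peg3, Plagl1 and Ndn stayed further below 0, at -0.78, -0.31 and -0.58. The median of the 8 was -0.54 without knockout 1, -0.08 without control 2, -0.49 with litter as a replicate block and -0.60 with limma-voom. In the same order, the median over all genes tested in those fits was -0.058, 0.037, -0.12 and -0.14. Scaling moved the median of the 8 too. It was -0.02 with library sizes alone, a setting that moved the median of all genes to 0.23. With upper-quartile scaling it was -0.37, and the median of all genes was -0.10. The 5 tested paternally expressed members had estimates from -1.04 to -0.16 and the 3 maternally expressed ones from -0.25 to 0.13.

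Igf2 encodes insulin-like growth factor 2, the main growth-promoting ligand of the fetus, and lies at chr7:142650766-142666816 on the minus strand (gene ENSMUSG00000048583.16, GENCODE M21, build GRCm38). Control libraries, numbered by litter here and below, had 221, 231 and 134 CPM, and knockout libraries 194, 176 and 153 CPM. The 3 knockouts all fell within the range of the controls, of which control 3 was the lowest of the 6 libraries. The control mean was 196 ± 53.2 CPM and the knockout mean 174 ± 20.7 CPM (SD, n = 3 each). The log2 fold change was -0.16 with a 95% interval of -0.76 to 0.43 (edgeR adjusted p = 0.948), and its sign turned to 0.07 with library sizes alone. Within litters 1 to 3 the log2 difference after TMM scaling was -0.19, -0.40 and 0.19, so litter 3 went the other way. The sign in litter 1 rests on that scaling, since the counts were 6401 in control 1 and 7727 in knockout 1.

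H19 is the maternally expressed non-coding RNA that shares enhancers with Igf2 and lies at chr7:142575529-142578143 on the minus strand (ENSMUSG00000000031.16). Its values were 289, 293 and 136 CPM in controls and 210, 178 and 214 CPM in knockouts. As for Igf2, control 3 was the lowest library and the knockouts sat between the controls. Its estimated log2 fold change was -0.25 with an interval of -0.96 to 0.46 (edgeR adjusted p = 0.926). The exons of H19 share 3.41% of their bases with Mir675, which lies on the same strand, so strand would not separate their reads. Those of Igf2 share 1.71% with the antisense gene Igf2os. Strand-specific counting is not given in the sources used here, so reads in those bases cannot be assigned to Igf2 or Igf2os.

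The ratio of H19 to Igf2 counts sets the maternally expressed gene against the paternally expressed one within a library, so library size cancels. Its log2 value, with 0.5 added to each count, was 0.39, 0.34 and 0.01 for the control libraries and 0.11, 0.02 and 0.48 for the knockout libraries. The highest ratio was in a knockout and the lowest in a control, and the groups overlapped. The means were 0.25 ± 0.203 and 0.20 ± 0.245 (SD, n = 3 each), and an exact two-sided permutation test of their difference of -0.044 gave p = 1.0, where the smallest p that 3 against 3 allows is 0.1. The litter differences were -0.27, -0.32 and 0.47. The ratio concerns total RNA of the pair, and the counts do not tell the parental copies apart.

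Igf2 and H19 are abundant in fetal hepatoblasts, the liver's own precursor cells, so hepatoblast markers are given beside them. The 15 markers summed to 7.56, 20.6 and 28.7 CPM in controls and 6.92, 31.3 and 8.03 CPM in knockouts, and 3 to 10 of the 15 were at 0 in a given library. The markers did not share 1 pattern. Alb, which encodes serum albumin, was 1.14, 4.52 and 6.40 CPM in controls and 0.805, 2.95 and 3.08 CPM in knockouts, and Afp, a fetal relative of albumin, was 12.1 CPM in control 3 and 0.331 to 1.52 CPM elsewhere. Hnf4a, a transcription factor of liver cells, was instead highest in knockout 2 at 17.1 CPM and next in control 2 at 8.88 CPM. Krt18, a keratin gene, was 10.6 CPM in knockout 2 and at most 1.90 CPM elsewhere, and the other 11 markers were at most 2.87 CPM in any library. The part of hepatoblast RNA in the Igf2 and H19 values was not tested.

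Igf2r encodes the receptor that carries IGF2 to the lysosome for degradation and is expressed from the maternal copy in mouse (chr17:12682406-12769664, minus strand, ENSMUSG00000023830.14). It was 83.4, 112 and 89.3 CPM in controls and 93.2, 98.4 and 51.7 CPM in knockouts. Knockouts 1 and 2 lay inside the control range and knockout 3 lay 1.61-fold below the next lowest library. For the comparison of genotypes the log2 fold change was -0.23 with an interval of -0.91 to 0.46 (edgeR adjusted p = 0.933), and without knockout 3 it was 0.03. In that library the HSC markers were also low, at 49.5% of the next lowest summed level, and the part of the marker level in the Igf2r value was not tested. In bulk samples, fewer cells of a type and less RNA per cell cannot be told apart.

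Grb10 encodes an adaptor that binds the insulin and IGF1 receptors and dampens their signal, and it is expressed from the maternal copy in most tissues (chr11:11930508-12038683, minus strand, ENSMUSG00000020176.17). It was 284, 400 and 391 CPM in controls and 311, 418 and 447 CPM in knockouts. Litter 1 gave the lowest value in each genotype. After TMM scaling every litter difference was small and above 0, at 0.13, 0.06 and 0.19 on the log2 scale. The litter 1 difference would be larger without that scaling. Counts there were 8215 in control 1 and 12365 in knockout 1, the library with fewer gene counts. The estimate was 0.13 with an interval of -0.40 to 0.66 (edgeR adjusted p = 0.959), and its sign was not stable to scaling, since upper-quartile scaling put it at -0.0011. Among 9019 genes with a mean of at least 5 CPM, only 7.82% had a smaller SD of log2 CPM over the 6 libraries than the 0.258 of Grb10, and 12.6% had a smaller one than the 0.304 of Igf2.

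**Figure D1:**
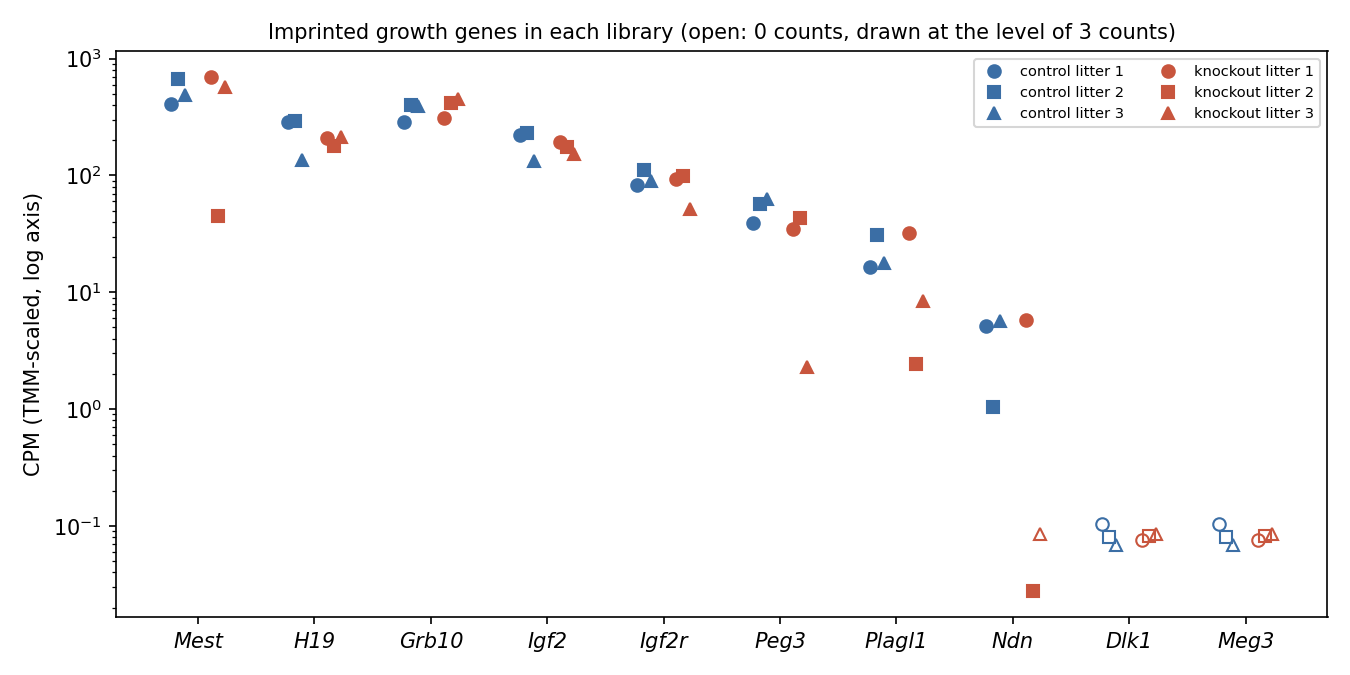
CPM of each member in each library on a log axis, controls in blue and knockouts in red, with the marker shape giving the litter and open symbols marking 0 counts, drawn at the level of 3 counts. Mest in knockout 2 (45.3 CPM) and Peg3 in knockout 3 (2.31 CPM) stand far below the other libraries, Ndn in knockout 2 is a single count (0.0276 CPM) and so lies below the open symbols, and Igf2, H19 and Grb10 stay within a narrow range.

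Mest, the paternally expressed gene for an alpha/beta-hydrolase-fold protein of the mesoderm, lies at chr6:30723547-30748465 on the plus strand (ENSMUSG00000051855.15). It was 405, 665 and 485 CPM in controls and 693, 45.3 and 576 CPM in knockouts. Knockout 1 was the highest of the 6 libraries, and knockout 2 was 8.92-fold below the next lowest. Between genotypes the log2 fold change was -0.24 with an interval of -1.99 to 1.51 (edgeR adjusted p = 0.977). Without knockout 2 it was 0.29, and with litter as a replicate block -0.71 (edgeR adjusted p = 0.961). The SD of log2 CPM was 0.362 over the controls and 2.2 over the knockouts, where the medians of all 9019 genes were 0.37 and 0.663. Of Mest's exon bases, 23.1% overlap Copg2 on the opposite strand, so reads there cannot be assigned to either gene without strand.

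Plagl1 encodes a zinc-finger transcription factor that can regulate other imprinted genes and is expressed from the paternal copy (chr10:13060504-13131694, plus strand, ENSMUSG00000019817.18). It was 16.6, 30.8 and 17.9 CPM in controls and 32.1, 2.45 and 8.43 CPM in knockouts. Knockout 1 was again the highest library and knockout 2 the lowest, 3.44-fold below knockout 3, which itself lay under all controls. This gave a log2 fold change of -0.60 with an interval of -2.52 to 1.31 (edgeR adjusted p = 0.936). The value was -0.10 without knockout 2, -2.01 without knockout 1 and -1.22 with the replicate block (edgeR adjusted p = 0.953). The litter differences of 0.94, -3.62 and -1.08 did not share a sign.

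The library in which Mest and Plagl1 were lowest was also lowest for 7 of 9 endothelial markers, by very different margins. That library, knockout 2, was the lowest for 22.8% of all tested genes. Stab2, a scavenger receptor of liver sinusoidal endothelium, was 382, 479 and 317 CPM in controls and 534, 24.6 and 359 CPM in knockouts. Lyve1, a hyaluronan receptor of the same endothelium, was 444, 656 and 411 CPM in controls and 525, 28.9 and 727 CPM in knockouts. Knockout 2 was thus 12.9-fold below the next lowest library for Stab2 and 14.2-fold for Lyve1. Peg10, a paternally expressed gene derived from a retrotransposon and best known from the placenta, had the same low library, with 174, 242 and 169 CPM in controls and 155, 10.5 and 206 CPM in knockouts. Peg10, Stab2 and Lyve1 were chosen here after their values were seen. Other endothelial markers stood less apart: Pecam1, an adhesion molecule shared with HSCs, was 37.4 CPM in knockout 2 against 45.5 CPM in the next lowest library. Tek was lowest in knockout 3 at 27.8 CPM, and Clec4g at 7.14 CPM in knockout 2 was above every control.

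The ratio of Mest to Stab2 counts was 1.06, 1.39 and 1.53 in controls and 1.30, 1.84 and 1.61 in knockouts. Its 1.74-fold range over 6 libraries compares with a 15.3-fold range for Mest and a 21.7-fold range for Stab2 in CPM. The ratio of Peg10 to Stab2 counts ranged from 0.29 to 0.573, and that of Plagl1 to Stab2 spread further, from 0.0235 to 0.0998. Across the 6 libraries the log2 CPM of Mest had a Pearson r of 0.991 with Stab2, 0.987 with Lyve1 and 0.98 with Peg10. These correlations rest mainly on 1 low library and carry no test, and the part of the endothelial transcripts in the Mest value was not tested.

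Peg3 encodes a large zinc-finger protein, is expressed from the paternal copy and has been linked to p53-dependent cell death and to tissue stem cells (chr7:6703892-6730431, minus strand, ENSMUSG00000002265.16). It was 38.9, 57.2 and 62.3 CPM in controls and 35.1, 43.4 and 2.31 CPM in knockouts. Knockout 2 lay within the control range, knockout 1 just under it, and knockout 3 was 15.2-fold below the next lowest library. An estimate of -0.97 on the log2 scale had an interval of -2.87 to 0.93 (edgeR adjusted p = 0.884). It was -0.42 without knockout 3 and -1.50 with the replicate block (edgeR adjusted p = 0.953). After TMM scaling all 3 litter differences were below 0, at -0.15, -0.40 and -4.72, the first 2 of them small. The sign in litter 1 rests on that scaling. Knockout 1 had 1396 Peg3 counts against 1127 in control 1, from fewer gene counts (31897737 against 38807387).

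Of the 15 HSC markers, 13 were lowest in the same knockout 3, against 29.1% of all tested genes. Hlf and Mecom, chosen after their values were seen, serve as examples. Hlf, a transcription factor that marks HSCs, was 169, 177 and 157 CPM in controls and 146, 230 and 27.2 CPM in knockouts. Mecom, a transcription factor needed for HSC maintenance, was 70.5, 70.2 and 78.7 CPM in controls and 99.6, 147 and 11.6 CPM in knockouts. Knockout 3 was 5.35-fold below the next lowest library for Hlf and 6.07-fold for Mecom. The gap was wider for Peg3 than for these markers, and the ratio of Peg3 to Hlf counts was 0.23, 0.324 and 0.397 in controls, 0.241 and 0.189 in knockouts 1 and 2 and 0.0849 in knockout 3. Other HSC markers stood less apart: Kit was 114 CPM in knockout 3 against 173 CPM in the next lowest library. Esam was instead highest in knockout 3, at 48.1 CPM, and Gata2 at 45.3 CPM there was above every control. The part of the HSC marker level in the Peg3 value was not tested.

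Ndn encodes necdin, a paternally expressed growth suppressor of the MAGE family that restrains HSC proliferation (chr7:62346569-62350262, plus strand, ENSMUSG00000033585.5). Its counts were 149, 39 and 252 in controls and 228, 1 and 0 in knockouts, or 5.15, 1.04 and 5.72 CPM against 5.74, 0.0276 and 0 CPM. Knockout 1 matched the highest control, while the other knockouts were at or under the level of 3 counts. Its log2 fold change of -1.04 had an interval of -5.61 to 3.53 (edgeR adjusted p = 0.963), and leaving out knockout 1 moved it to -7.84 (adjusted p = 0.326). With litter as a replicate block it was -4.66 (edgeR adjusted p = 0.953), and the fitted value depends on the prior count, since 1 library was at 0. Controls differed too, with control 2 at 1.04 CPM, so Ndn was uneven within each genotype.

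Dlk1, a transmembrane ligand of the Notch family expressed from the paternal copy (chr12:109452823-109463336, plus strand, ENSMUSG00000040856.17), had 0 counts in all 6 libraries. Meg3, the maternally expressed non-coding RNA of the same domain (chr12:109541001-109571726, plus strand, ENSMUSG00000021268.17), also had 0 counts in all 6. A count of 0 allows up to 0.068 to 0.104 CPM, depending on the library. The planned ratio of Meg3 to Dlk1 could therefore not be computed. Of the other genes of the domain, Rtl1 was at 0 throughout, Rian had 0 to 2 counts per library, and Dio3 had 7 counts in control 3 only. Mirg had 5, 27 and 48 counts in controls and 41, 40 and 0 in knockouts. The annotation release used for counting is not given in the sources used here, and whether it assigned reads to Dlk1 and Meg3 in full was not tested.

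**Figure D2:**
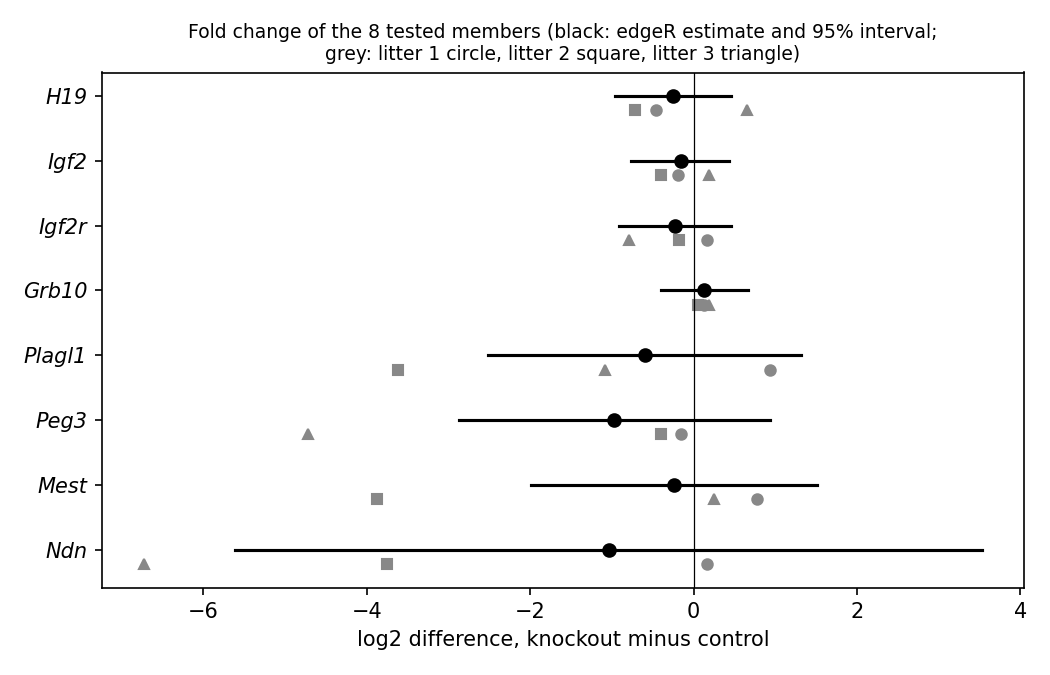
Log2 difference between knockout and control for the 8 tested members, with the edgeR estimate and 95% interval in black and the difference within litter 1 (circle), litter 2 (square) and litter 3 (triangle) in grey. All 8 intervals span 0. After TMM scaling the litter values of Mest, Plagl1, Peg3 and Ndn are spread over several log2 units, while those of Grb10 lie from 0.06 to 0.19.

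Per kilobase of exon, the tested members formed 5 levels. In controls Mest was 103, 168 and 123 CPM per kb and H19 was 118, 119 and 55.2, and these overlapped. Grb10 at 31.2, 44.0 and 43.1 and Igf2 at 38.6, 40.4 and 23.5 CPM per kb also overlapped, and lay below H19. Igf2r followed at 8.96, 12.0 and 9.59 CPM per kb, below Igf2 in every control. Peg3 at 2.92, 4.30 and 4.68 and Plagl1 at 2.13, 3.94 and 2.29 CPM per kb overlapped, and Ndn was the lowest at 1.39, 0.282 and 1.55. By the mean over the 6 libraries, 99.4% of tested genes with a length lay below Mest, 96.4% below Igf2, 51.1% below Peg3 and 20.3% below Ndn. In knockout 2 Mest lay under Grb10, at 11.5 CPM per kb against 46.0.

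The members differed in how evenly they were counted over the 6 libraries. The SD of log2 CPM over the 6 libraries was 0.258 for Grb10, 0.304 for Igf2, 0.384 for Igf2r and 0.423 for H19, all below the median of 0.621 over 9019 genes. It was 1.39 for Plagl1, 1.5 for Mest, 1.78 for Peg3 and 3.14 for Ndn, and 88.3% to 98.9% of genes had a smaller SD. The 98.9% belongs to Ndn, which is not itself among the 9019 genes of at least 5 CPM. Its means were 3.97 CPM in controls and 1.92 CPM in knockouts, with 1 and 0 counts in knockouts 2 and 3. Its rank is thus against genes with higher counts. Over controls alone the order differed. The SD there was 0.435 for Igf2 and 0.635 for H19, above the control median of 0.37. For Mest (0.362) and Peg3 (0.361) it was just under that median, so their larger SD came from the knockouts. Ndn (1.34) and Plagl1 (0.484) were above it in controls too. All 4 members with the larger SD over 6 libraries are expressed from the paternal copy, as is Igf2. Of the 7 members with a mean of at least 5 CPM, 2 had their lowest library at least 4-fold below the next (28.6%), against 9.62% of all 9019 genes, and the small number of members sets no test.

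**Figure D3:**
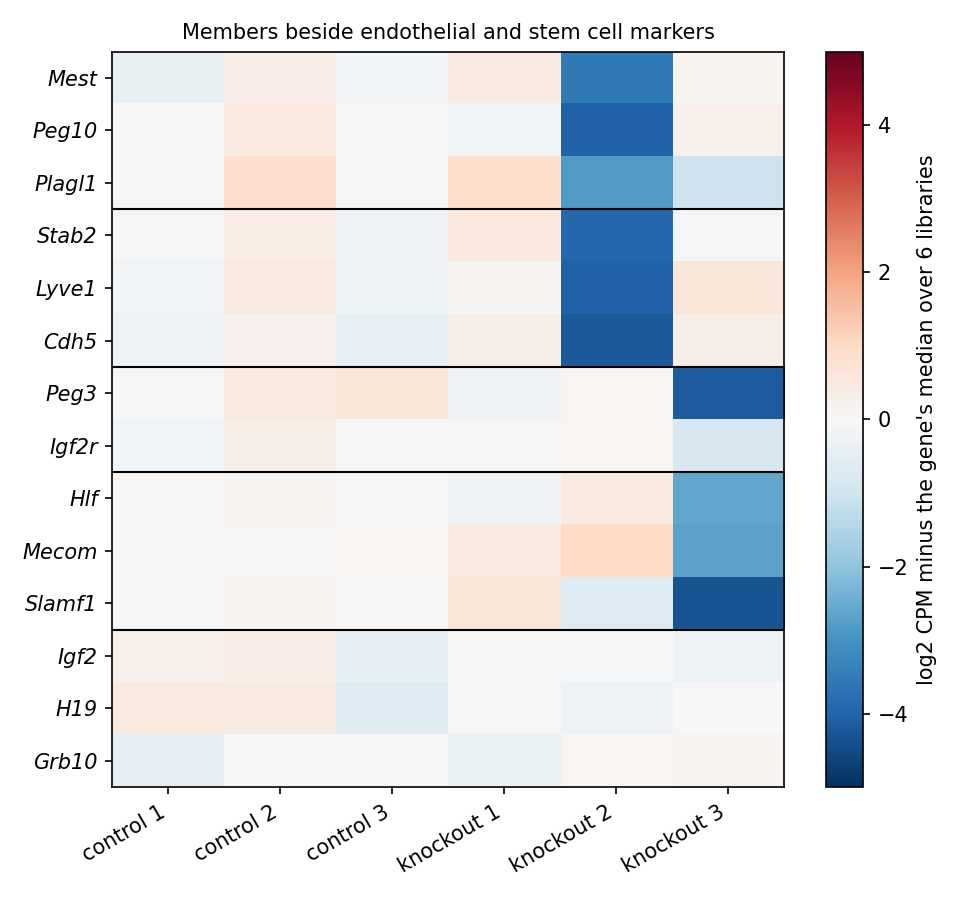
Log2 CPM of each gene minus its median over the 6 libraries, as a colour scale from blue (below) to red (above), with genes in rows and libraries in columns. Mest, Peg10 and Plagl1 are bluest in knockout 2 with the endothelial genes Stab2, Lyve1 and Cdh5, Peg3 and less so Igf2r are bluest in knockout 3 with the HSC genes Hlf, Mecom and Slamf1, and Igf2, H19 and Grb10 stay near 0.

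Among 9012 other genes with a mean of at least 5 CPM, those whose log2 CPM followed each member most closely over the 6 libraries were Supt4a (r = 0.99) and Uba3 (0.982) for Igf2, and Csnk2a2 (0.989) and Tpd52 (0.985) for H19. They were Akap12 and Sfi1 (both 0.996) for Mest, B3gnt3 and Traip (both 0.995) for Plagl1, Nsd1 (0.999) and Fam105b (0.998) for Peg3, and Zfp831 (0.99) and Lyrm9 (0.988) for Ndn. For Grb10 they were Zfp691 (0.98) and Abcg1 (0.975), and for Igf2r Dgcr2 (0.993) and Nedd1 (0.988). The number of genes with r over 0.95 was 231 for Peg3 and 167 for Mest, against 7 for Igf2, 4 for H19 and 11 for Grb10. With 6 points that share their libraries, and 1 low library behind the high values of Mest and Peg3, these likenesses are descriptions only.

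The other imprinted genes gave few differences. Of 55 listed, 51 were in the files and 32 were tested, and 4 genes (Kcnq1ot1, Zfp264, Nespas and Peg13) were not analysed here. None of the 32 passed the edgeR threshold. At an unadjusted edgeR p under 0.05 there were 2, both higher in knockouts, against 6.51% of all tested genes. Another count gave 3 with every knockout above every control, against 6.39%, and 3 with every knockout below, against 7.74%, so these shares were near those of all genes. Their median log2 fold change was 0.07, with 17 estimates above 0 and 15 below. DESeq2 called 1, Ddc, against 1.03% of all genes.

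Ddc, the gene for aromatic amino acid decarboxylase, neighbours Grb10 and is imprinted in the embryonic heart. It was 0.829, 0.294 and 0 CPM in controls and 2.26, 9.95 and 63.5 CPM in knockouts 1 to 3. Every knockout lay above every control, and knockout 3 carried most of the level. The log2 fold change was 6.10 (SE 1.72), with an edgeR adjusted p of 0.663 and a DESeq2 adjusted p of 0.000472, so the call depended on the tool. With litter as a replicate block it was 5.31 (edgeR adjusted p = 0.953). Grb10, whose gene lies beside it, differed little in the same libraries.

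Copg2, the coat-complex gene that overlaps the 3′ end of Mest, was 21.6, 21.6 and 29.4 CPM in controls and 37.8, 51.6 and 36.8 CPM in knockouts. Every knockout was above every control, and knockout 2, the lowest for Mest, was the highest for Copg2. Copg2 gave a log2 fold change of 0.80 (SE 0.322, edgeR adjusted p = 0.753). Zrsr1, a paternally expressed splicing-factor retrogene, was 2.77 to 6.49 CPM in controls and 6.77 to 17.8 CPM in knockouts (log2 fold change 1.35, edgeR adjusted p = 0.795), and reads of a retrogene can be shared with its parent gene. Dcn, which encodes the matrix proteoglycan decorin, was at most 3.40 CPM and gave -4.21 (edgeR adjusted p = 0.793).

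The neighbours of other members had library patterns of their own. Igf2os, antisense to Igf2, was 9.95, 8.10 and 6.31 CPM in controls and 4.08, 5.21 and 1.37 CPM in knockouts, below every control, while Igf2 overlapped (Igf2os log2 fold change -1.19, edgeR adjusted p = 0.849). Airn, the paternally expressed non-coding RNA antisense to Igf2r, was 5.66, 10.8 and 9.46 CPM in controls and 37.1, 0 and 29.7 CPM in knockouts (1.37, edgeR adjusted p = 0.917). Airn was thus at 0 in knockout 2 and highest in the other knockouts, while Igf2r in knockouts 1 and 2 was alike at 93.2 and 98.4 CPM. Slc22a3, a cation transporter gene of the Igf2r domain, was 14.2, 11.6 and 5.97 CPM in controls and 20.7, 26.8 and 4.23 CPM in knockouts.

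In the domain of Ndn, Snrpn, which encodes a small nuclear ribonucleoprotein, was 13.4, 5.99 and 2.61 CPM in controls and 4.05, 1.96 and 0.286 CPM in knockouts. The knockout of each litter was below its control, and the groups overlapped (log2 fold change -1.80, edgeR adjusted p = 0.844). Ube3a, a ubiquitin ligase gene imprinted in neurons, was 65.0, 46.3 and 35.2 CPM in controls and 34.8, 38.4 and 26.9 CPM in knockouts (-0.55, edgeR adjusted p = 0.834). Peg12, a single-exon gene close to Ndn, ranged from 0.691 to 3.26 CPM in controls and was 2.37, 0.909 and 0 CPM in knockouts. Zim1, beside Peg3, did not pass the filter and reached 3.15 CPM in control 3 alone.

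In the IGF pathway 38 of 44 listed genes were tested, and none passed the edgeR threshold. At an unadjusted edgeR p under 0.05, 2 were higher and 1 lower in knockouts, against 6.51% of all tested genes in either direction. In 4 every knockout was above every control, against 6.39%, and in 1 below, against 7.74%. DESeq2 called 1, Igf1, against 1.03%, and the median log2 fold change was 0.15. Igf1, the ligand that shares its receptor with IGF2 but is not imprinted, was 17.6, 22.6 and 26.1 CPM in controls and 48.9, 60.1 and 77.5 CPM in knockouts. Every knockout was above every control, with means of 22.1 ± 4.25 and 62.2 ± 14.4 CPM (SD, n = 3 each). The log2 fold change was 1.49 with an interval of 0.76 to 2.22, an edgeR adjusted p of 0.622 and a DESeq2 adjusted p of 0.00742, so the call depended on the tool.

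Several macrophage transcripts were also above every control in the knockouts, and macrophages express Igf1. The 10 macrophage markers in the files summed to 351, 590 and 373 CPM in controls and 842, 349 and 1710 CPM in knockouts, so the sums overlapped. C1qb, Csf1r, Cd68, Timd4 and Lyz2, 5 of the 10, were above every control in every knockout, against 6.39% of all tested genes, and none of the 10 was at 0 in any library. Mrc1 and Vcam1 overlapped and were lowest in knockout 2, at 26.4 and 2.31 CPM. Adgre1 was not analysed here. The ratio of Igf1 to counts of Csf1r, the macrophage colony-stimulating factor receptor, was 1.98, 0.578 and 1.16 in controls and 0.646, 0.65 and 0.549 in knockouts, and the groups overlapped. The part of macrophage RNA in the Igf1 value was not tested.

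Igf2bp1 encodes an RNA-binding protein of the fetal programme that binds Igf2 mRNA. Its values were 96.9, 81.9 and 63.1 CPM in controls and 47.1, 20.0 and 28.0 CPM in knockouts, below every control. The log2 fold change was -1.35 (SE 0.371), with an edgeR adjusted p of 0.642 and a DESeq2 adjusted p of 0.0883. Its relatives Igf2bp2 and Igf2bp3 overlapped between genotypes, although Igf2bp2 was 6.97 CPM in knockout 3 against 41.1 to 63.0 CPM elsewhere. The level of Igf2 itself overlapped, as described above.

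Of the receptors, Igf1r was 65.0, 70.4 and 51.2 CPM in controls and 73.1, 61.5 and 74.1 CPM in knockouts (log2 fold change 0.16, edgeR adjusted p = 0.945). Insr, the insulin receptor, was 58.2, 68.9 and 49.0 CPM in controls and 48.5, 56.1 and 25.3 CPM in knockouts (-0.44, edgeR adjusted p = 0.877). Like Igf2r, Insr was lowest in knockout 3, while Igf1r was not. Downstream, Pik3cb, a catalytic subunit of phosphoinositide 3-kinase, was 13.5, 21.6 and 25.5 CPM in controls and 41.8, 43.2 and 49.4 CPM in knockouts (1.15, SE 0.348, edgeR adjusted p = 0.672). The adaptor gene Irs2 ranged from 2.73 to 12.2 CPM in controls and from 3.37 to 43.0 CPM in knockouts (1.59, edgeR adjusted p = 0.814).

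**Figure D4:**
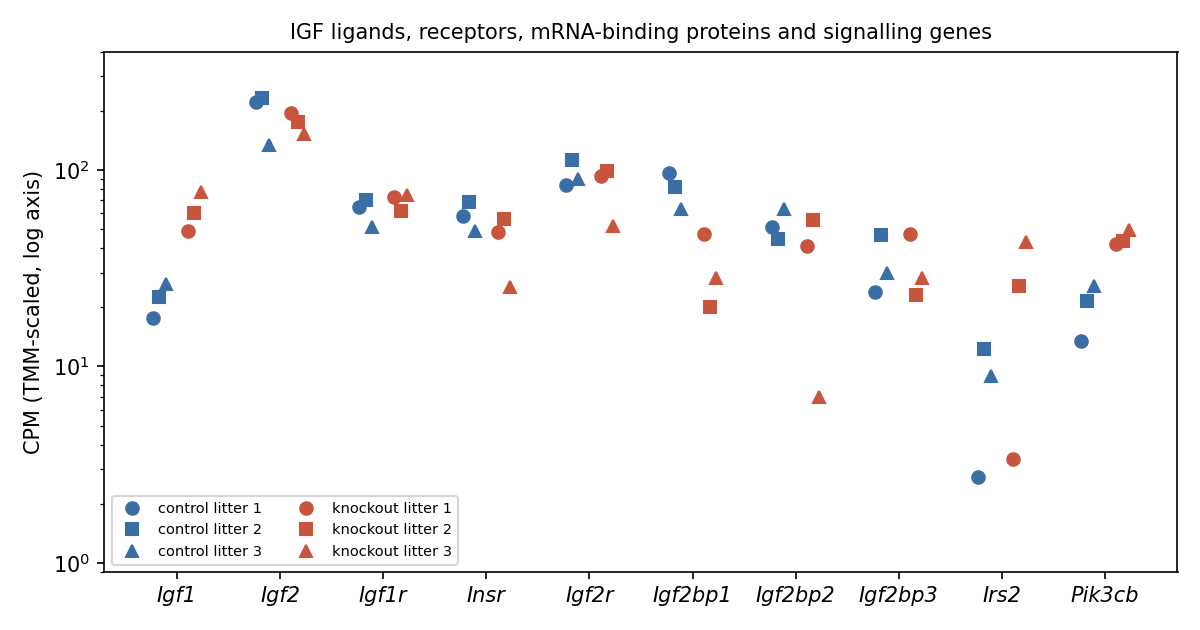
CPM of IGF ligands, receptors, Igf2 mRNA-binding proteins and signalling genes in each library on a log axis, controls in blue and knockouts in red, with the marker shape giving the litter. Igf1 and Pik3cb are above every control in the knockouts and Igf2bp1 below every control, while Igf2, Igf1r, Insr and Igf2r overlap.

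The genes that keep imprints through development did not pass the test either. Of 17 listed, 14 were tested, and 0 had an unadjusted edgeR p under 0.05, against 6.51% of all tested genes. In 1, Trim28, every knockout was below every control, against 7.74%. That separation was narrow, with control 1 at 27.3 and knockout 2 at 27.1 CPM per kb of exon. The median log2 fold change was -0.09, with 10 of the 14 lowest in knockout 3 (71.4%, against 29.1% of all tested genes). Trim28, the corepressor that ZFP57 recruits, was 113, 115 and 136 CPM in controls and 90.9, 113 and 56.8 CPM in knockouts (-0.49, edgeR adjusted p = 0.824). Zfp57 was uneven, at 5.11, 6.18 and 2.38 CPM in controls and 15.8, 0.854 and 23.2 CPM in knockouts (1.54, edgeR adjusted p = 0.858), with its lowest library the one lowest for Mest. The H3K9 methyltransferase gene Ehmt2 gave -0.55 (edgeR adjusted p = 0.868), and Uhrf1, which brings the maintenance DNA methyltransferase to replicated DNA, gave 0.33 (edgeR adjusted p = 0.906).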

How the data were processed

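RNA was poly(A)-selected and sequenced from 6 libraries of sorted fetal liver HSCs, 3 control and 3 knockout. The authors deposited raw read counts per gene for each library. The submitters' processing notes name CASAVA 1.8.4, TopHat2, Picard 1.126 and HTSeq 0.6.0 and build mm10; annotation release, strand setting and read length are not given in the sources used here. Tallies of reads in no gene were left out of library sizes.

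Counts were tested with edgeR 4.0.16 (R 4.3.3): filter by expression per genotype, TMM scaling and the quasi-likelihood test, with Benjamini-Hochberg adjustment over 13646 genes and a threshold of 0.05. DESeq2 1.42.0, limma-voom 3.58.1, other scalings and filters, the litter as a replicate block, and leaving out each library were alternatives; the DESeq2 fit with the block was added after seeing the data. The code was tested on simulated data. The labels pair libraries by litter; the correlation of the deviations of the 2 libraries of a litter was -0.0224, -0.0752 and 0.00336 for litters 1 to 3. CPM are TMM-scaled, and differences of CPM or ratios used exact permutation. Levels per kb used GENCODE M21 exons (GRCm38, the build also called mm10), known for 12871 of the tested genes. RefSeq start-site windows were matched for 9 of the 10 members.

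Members and gene lists were chosen with earlier results of these data known. Named genes are all members, up to 4 genes with the smallest unadjusted p per list among those of at least 1 CPM in a genotype, neighbours of members in their imprinted clusters that passed the filter, and the 2 genes most like each member. Outside this rule, and chosen after their values were seen, are Peg10, the single marker genes, Igf1r, Insr, Igf2bp2 and Igf2bp3, and the low genes of the members' clusters that did not pass the filter (Zim1, Rtl1, Rian and Dio3). A count of 0 allows up to 3 counts, which covers counting error only. Marker lists for mesenchyme, erythroid and megakaryocyte cells summed to 7.35 to 36.5, 817 to 2590 and 154 to 359 CPM.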

Additional observations from a re-analysis of the deposited data

How the results depend on the processing

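No member passed an adjusted p of 0.05 under any alternative run; at an unadjusted p, 2 did without knockout 1 and 2 with DESeq2 and the replicate block, against 0 in the other fits. Over all genes the count was 0 with edgeR, 1 with no filter on low counts, 1 with at least 10 counts in every sample, 138 with DESeq2 and 277 with DESeq2 and the replicate block. Of other imprinted genes DESeq2 called 1 (Ddc), with the replicate block also 1; of IGF genes DESeq2 called 1 (Igf1), with the replicate block 2 (Igf1 and Igf2bp1). The edgeR fit with litter as a replicate block, the paired analysis, called 0 genes and left 619 at an unadjusted p under 0.05, against 888 without it. Leaving out each library in turn gave log2 fold changes of -0.013 to 0.27 for Grb10, -0.74 to 0.29 for Mest (0.29 without knockout 2) and -0.39 to 0.03 for Igf2r (0.026 without knockout 3), a change in the H19 to Igf2 log2 ratio of -0.18 to 0.049, and medians of -0.54 to -0.08 for the members, -0.20 to 0.19 for other imprinted genes, -0.079 to 0.28 for IGF genes and -0.16 to 0.15 for imprint maintenance. Library sizes alone gave 0.068 for Igf2 and a median of 0.12 for imprint maintenance. Upper-quartile scaling gave -0.0011 for Grb10. The median of other imprinted genes, 0.07, was -0.031 with upper-quartile scaling, -0.25 with no filter, -0.17 with DESeq2 and the replicate block, -0.41 with limma-voom and -0.19 with the replicate block. The value with no filter is over 42 genes, against 32 in the main fit. In the same order, the median of all genes was -0.10, -0.065, -0.11, -0.14 and -0.12, against 0.01 in the main fit. The cause of these shifts was not tested. Ndn has no value under the filter of 10 counts in every sample, and the Meg3 to Dlk1 ratio has none at all.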
